A study of Mus musculus with 8 samples.

Results

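RGS genes, the regulators of G-protein signalling, were examined in cultured mouse brain pericytes with and without TGF-β1. The text follows 10 of the 54532 genes in the count files: *Rgs2*, *Rgs3*, *Rgs4*, *Rgs5*, *Rgs10*, *Rgs12*, *Rgs16*, *Rgs17*, *Rgs19* and *Rgs20*. They were chosen by name with results of the same comparison already known, so their differences between the groups are given as a description, with no p-value. All 10 passed the filter on low counts, and so did 6 of the other 11 RGS genes considered. The cells were wild-type primary cultures from mouse brain, first plated on collagen I and expanded over several passages. In culture they lacked the vessel wall and the blood flow that surround a pericyte. The 4 cultures numbered 5 to 8 received TGF-β1 at 5 μg/mL for 48 h, and the 4 numbered 1 to 4 received vehicle for the same time. The labels give no strain, sex or age of the donor mice, and the study's methods name adult males for its mouse work without saying whether the brains came from them. The study's methods describe 4 separate isolates, given vehicle and TGF-β1, but the labels do not tie each culture to an isolate. The groups were therefore compared unpaired, and the spread between replicates may be partly technical.

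G protein-coupled receptors switch on the Gα subunit of a heterotrimeric G protein by loading it with GTP. RGS proteins bind active Gα through a conserved domain and speed up GTP hydrolysis, which ends the signal of both Gα and the released Gβγ. In mural cells, which wrap blood vessels, the Gq and Gi signals that they shorten are those of vasoconstrictors, and *Rgs5* is widely used as a pericyte marker. The family falls into subfamilies named R4, R7, R12 and RZ. R4 proteins are small and act on Gi and Gq, R7 proteins work as dimers with Gβ5, R12 holds the large scaffold RGS12, and RZ proteins carry a string of cysteines and act mainly on Gi and Gz.

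Sequencing depth was even. Totals ranged from 45255235 to 47651397 counts in the vehicle cultures and from 45988208 to 46827358 in the TGF-β1 cultures (exact two-sided permutation test, p = 0.857, where the smallest possible p is 0.0286). Levels are given as CPM, counts scaled to a fixed total over the tested genes with TMM factors, and a count of 3 corresponded to between 0.0631 and 0.0658 CPM. Between 68.5% and 70.2% of the counts from 1 to 20 were even numbers, so counts need not be independent molecules. The comparison of the groups touched a large part of the transcriptome. Of 22544 genes tested with edgeR's quasi-likelihood test, 41.3% were called at an adjusted p under 0.05, namely 20.9% as higher with TGF-β1 and 20.3% as lower. In 37.9% of them the lowest culture of one group lay above the highest of the other, which is called no overlap below.

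The starts of the coding sequences separated 3 of the 10 genes from the rest. An RGS protein whose second residue is cysteine loses its first methionine and can then be oxidised, arginylated and degraded by the N-degron pathway, so this codon bears on how mRNA levels relate to protein. The first 30 coding bases are shown for the 3 genes that have such a codon and for 2 that do not, from GENCODE M21 transcripts, with the second codon in capitals.
Rgs4: atgTGCaaaggacttgcaggtctgccggct
Rgs5: atgTGTaagggactggcagctctgccgcac
Rgs16: atgTGCcgcaccctagccaccttccccaac
Rgs2: atgCAAagtgccatgttcctggctgtccag
Rgs10: atgTTCacccgcgccgtgagccgactgagc
*Rgs4*, *Rgs5* and *Rgs16* had the cysteine codon TGC or TGT in every complete transcript. None of the complete transcripts of the other 18 RGS genes had it, and over all genes with a complete coding sequence the share with such a codon was 1.27% (275 of 21591). No protein level was measured here.

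The 3 genes with the cysteine codon, together with *Rgs2*, all belong to R4 and lie on chromosome 1. The 250 bases before the RefSeq start (GRCm38.p6) are printed for these 4. Among the 10 genes, they include the 2 largest differences below vehicle, the largest above it and a neighbouring pair. Capitals mark TATAAA, the core promoter motif, and CAGAC on either strand. The latter is the short element bound by SMAD proteins, the transcription factors of the TGF-β pathway.
Rgs5, chr1:169655251-169655500, plus strand: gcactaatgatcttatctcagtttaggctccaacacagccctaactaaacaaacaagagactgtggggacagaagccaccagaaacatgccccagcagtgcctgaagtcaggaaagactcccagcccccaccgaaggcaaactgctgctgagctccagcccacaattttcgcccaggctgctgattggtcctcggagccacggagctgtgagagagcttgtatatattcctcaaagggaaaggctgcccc
Rgs4, chr1:169747643-169747892, minus strand: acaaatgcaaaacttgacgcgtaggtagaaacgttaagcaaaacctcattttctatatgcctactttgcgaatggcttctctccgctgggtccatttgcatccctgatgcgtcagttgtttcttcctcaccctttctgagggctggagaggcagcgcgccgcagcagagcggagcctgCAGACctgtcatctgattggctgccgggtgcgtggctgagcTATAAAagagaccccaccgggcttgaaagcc
Rgs2, chr1:144004150-144004399, minus strand: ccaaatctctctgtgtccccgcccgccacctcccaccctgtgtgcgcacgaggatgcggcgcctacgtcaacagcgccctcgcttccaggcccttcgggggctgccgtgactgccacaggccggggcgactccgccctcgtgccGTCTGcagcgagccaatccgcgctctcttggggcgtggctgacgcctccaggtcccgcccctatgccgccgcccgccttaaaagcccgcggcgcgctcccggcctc
Rgs16, chr1:153740103-153740352, plus strand: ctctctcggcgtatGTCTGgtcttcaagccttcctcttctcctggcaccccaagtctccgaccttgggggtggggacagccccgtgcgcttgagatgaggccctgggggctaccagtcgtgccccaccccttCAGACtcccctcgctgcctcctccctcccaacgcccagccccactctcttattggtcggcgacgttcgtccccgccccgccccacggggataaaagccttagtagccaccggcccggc
The *Rgs4* window held TATAAA starting 31 bases before the start and 1 CAGAC, starting 72 bases before it. No TATAAA and no CAGAC lay in the *Rgs5* window, whereas *Rgs2* had 1 CAGAC (106 bases before the start) and *Rgs16* had 2 (236 and 118 bases before it). All 4 held CCAAT, the CAAT box, between 57 and 94 bases before the start. TGANTCA (AP-1), TGACGTCA (CRE), GTCTAGAC (the full SMAD palindrome) and the CArG box were found in none of the 4 windows. Searched the same way on both strands, TATAAA lay in 12.4% of 32851 mouse promoter windows, CAGAC in 42.2%, CCAAT in 33.8%, TGANTCA in 6.75%, TGACGTCA in 1.55%, the CArG box in 1.47% and GTCTAGAC in 0.167%. *Rgs5* and *Rgs4* windows both had a GC content of 53.6%, close to the median window (52.4%), and *Rgs2* and *Rgs16* were richer, at 72.4% and 66.4%. These matches describe letters only, and binding was not measured. Promoter windows were found for 9 of the 10 genes, *Rgs20* being the exception. Beyond the 4 printed, 1 *Rgs12* window held 3 CAGAC and 1 TGANTCA, and the *Rgs17* window held 1 TGANTCA. Both *Rgs3* windows held TATAAA, and 1 of them also held CAGAC. None of the motifs searched lay in the windows of *Rgs10* and *Rgs19*.

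*Rgs5* was the gene of the 10 with the largest difference between the groups. It lies on the plus strand of chromosome 1 (ENSMUSG00000026678, 169655501 to 169695813, GRCm38) and encodes a small R4 protein that shortens Gq and Gi signals in mural cells. Vehicle cultures 1 to 4 had 9.09, 8.71, 7.98 and 8.71 CPM, and TGF-β1 cultures 5 to 8 had 2.47, 2.16, 1.99 and 1.92 CPM. Every TGF-β1 culture lay far below every vehicle culture, with between 90 and 419 counts behind each value. The means were 8.62 ± 0.466 and 2.13 ± 0.245 CPM (SD, n = 4), a log2 fold change of -2.02 (standard error 0.10) or 4.04-fold lower. In a bulk sample, fewer cells that express a gene and less of its RNA per cell cannot be told apart.

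*Rgs2* (ENSMUSG00000026360, chromosome 1, 143999338 to 144004161, minus strand) encodes the R4 protein with the strongest preference for Gq, and loss of it raises blood pressure in mice. Its values were 5.97, 6.16, 5.49 and 5.33 CPM with vehicle and 2.01, 1.57, 1.64 and 1.36 CPM with TGF-β1. Again the groups were well apart. The log2 fold change was -1.80 (standard error 0.12), or 3.49-fold lower, from 5.74 ± 0.392 to 1.64 ± 0.269 CPM (SD, n = 4).

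*Rgs3* (ENSMUSG00000059810, chromosome 4, 62559847 to 62704001, plus strand) had the highest CPM of the R4 genes, and also the highest level per kilobase of exon, and its larger protein forms carry a PDZ domain. The vehicle cultures had 35.1, 34.6, 34.5 and 33.8 CPM, a very narrow range, and the TGF-β1 cultures had 19.2, 22.8, 21.1 and 20.5 CPM. The groups did not overlap, and the log2 fold change was -0.73 (standard error 0.05), or 1.65-fold lower. Of all stretches of 50 bases in its transcripts, 11.4% also occur in transcripts of other genes, so a part of its reads could be shared.

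*Rgs4* (ENSMUSG00000038530, chromosome 1, 169741477 to 169747642, minus strand), which acts on Gi and Gq, is the neighbour of *Rgs5*. The pair point towards each other with 45.7 kb between them. *Rgs4* was at 5.27, 4.39, 5.30 and 5.85 CPM with vehicle and at 3.75, 3.40, 4.50 and 3.51 CPM with TGF-β1. TGF-β1 culture 7 was above vehicle culture 2, so the groups overlapped. The log2 fold change was -0.46 (standard error 0.11), or 1.37-fold lower, a much smaller difference than that of *Rgs5*.

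*Rgs16* was the R4 gene of the 10 that went the other way. It is found on chromosome 1 (ENSMUSG00000026475, 153740349 to 153745468, plus strand) and encodes an inhibitor of Gi and Gq that is induced in many cells by stimulation. Its values were 0.803, 1.03, 1.20 and 0.823 CPM with vehicle and 1.70, 2.35, 2.29 and 2.38 CPM with TGF-β1. All TGF-β1 cultures exceeded all vehicle cultures, on only 37 to 112 counts per culture. The means were 0.964 ± 0.188 and 2.18 ± 0.322 CPM (SD, n = 4), a log2 fold change of 1.18 (standard error 0.18) or 2.26-fold higher. Exons of the predicted gene *Gm28513* overlap 10.1% of its exon length on the other strand, and the strand setting of the counting was not given in the sources used here.

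**Figure D1:**
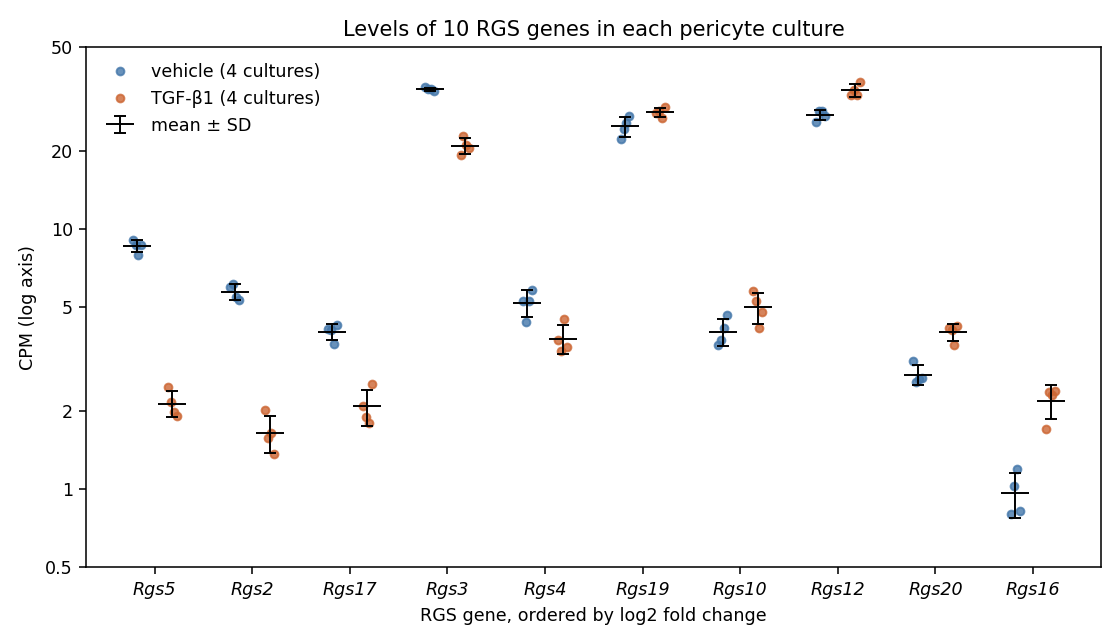
CPM on a log axis for the 10 RGS genes, with 1 point per culture (vehicle in blue, TGF-β1 in orange) and the mean ± SD of 4 cultures in black. *Rgs5*, *Rgs2*, *Rgs17* and *Rgs3* lie lower in every TGF-β1 culture than in any vehicle culture, *Rgs12*, *Rgs20* and *Rgs16* lie higher in every one, and the groups overlap for *Rgs4*, *Rgs19* and *Rgs10*.

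The R12 genes were both slightly higher with TGF-β1. *Rgs12* (ENSMUSG00000029101, chromosome 5, 34949445 to 35039644, plus strand) encodes a large scaffold that, besides its RGS domain, has PDZ, phosphotyrosine-binding and GoLoco domains. It was measured at 25.8, 28.4, 28.4 and 27.3 CPM with vehicle and at 32.8, 34.1, 32.9 and 36.9 CPM with TGF-β1, without overlap. Its log2 fold change was 0.31 (standard error 0.04), or 1.24-fold higher. A predicted gene overlaps 5.5% of its exon length on the other strand. *Rgs10* (ENSMUSG00000030844, chromosome 7, 128373621 to 128418758, minus strand) encodes a small protein selective for the Gi class, best known from microglia. Its values of 3.58, 3.75, 4.15 and 4.66 CPM with vehicle and 5.78, 5.27, 4.15 and 4.79 CPM with TGF-β1 overlapped. The log2 fold change was also 0.31, but with a standard error of 0.11, and its call was lost when any of 4 cultures was left out (vehicle 1 or 2, TGF-β1 5 or 6), at log2 fold changes from 0.23 to 0.28. The list of macrophage and microglia markers summed to 8.53 to 9.27 CPM with vehicle and 9.94 to 11.5 CPM with TGF-β1, with 1 of its 7 tested genes higher and none lower. The gene of this list called higher was *Csf1r*, at a log2 fold change of 0.73 and without overlap. *Cd68* was not called, had 208 to 300 counts per culture and gave 55.5% of the sum. *Tyrobp*, a defining gene of these cells, had at most 3 counts in every culture. The part of such cells in the *Rgs10* value was not tested.

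The RZ genes differed in direction. *Rgs17* (ENSMUSG00000019775, chromosome 10, 5825663 to 5922400, minus strand), whose protein acts on Gz and other Gi class subunits, had 4.12, 4.10, 3.62 and 4.29 CPM with vehicle and 2.09, 1.89, 1.79 and 2.53 CPM with TGF-β1. The TGF-β1 cultures were all lower, with a log2 fold change of -0.95 (standard error 0.13), or 1.94-fold lower. *Rgs20* (ENSMUSG00000002459, chromosome 1, 4909576 to 5070285, minus strand), a regulator of Gz, had 3.10, 2.59, 2.65 and 2.66 CPM with vehicle and 4.15, 4.09, 3.58 and 4.26 CPM with TGF-β1. Here all TGF-β1 cultures were higher, with a log2 fold change of 0.55 (standard error 0.12), or 1.46-fold higher, and genes on the other strand overlap 5.94% of its exon length. *Rgs19* (ENSMUSG00000002458, chromosome 2, 181688419 to 181693977, minus strand), known as GAIP and found on membranes of the secretory pathway, had 22.1, 24.3, 25.7 and 27.3 CPM with vehicle and 27.9, 28.4, 26.9 and 29.4 CPM with TGF-β1. Only TGF-β1 culture 7 reached into the vehicle range. The log2 fold change of *Rgs19* was 0.18 (standard error 0.05), or 1.13-fold higher, the smallest of the 10.

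Of the 10 genes, 5 were called higher and 5 lower, and in 7 the groups did not overlap. Nothing is read from these counts beside the 41.3% called and the 37.9% without overlap over all genes, since the genes were picked with the outcome known. The median of their log2 fold changes was -0.14 and the median of the absolute values was 0.64, against -0.01 and 0.18 over all genes tested. Among the 6 R4 genes tested, 2 were higher and 4 lower. In R12 both tested genes were higher, and in RZ 2 of 3.

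The 11 RGS genes that were not among the 10 included some with differences as large. *Rgs7* (ENSMUSG00000026527), an R7 gene best known from neurons, was at 6.38, 5.92, 5.32 and 5.52 CPM with vehicle and at 1.13, 1.13, 1.29 and 1.17 CPM with TGF-β1. These groups were widely apart, and the log2 fold change of -2.29 (standard error 0.13), or 4.89-fold lower, was larger in size than that of *Rgs5*. The list of neuron markers summed to 3.82 to 4.61 CPM with vehicle and 3.16 to 3.86 CPM with TGF-β1, ranges that overlapped, with 1 of its 4 tested genes lower and none higher. *Rgs9*, another R7 gene, was at 1.16 ± 0.461 and 0.590 ± 0.137 CPM (SD, n = 4), with overlap and a log2 fold change of -0.97 (standard error 0.26). *Rgs8*, an R4 gene, was at 0.913 ± 0.146 and 1.72 ± 0.187 CPM (SD, n = 4), without overlap and with a log2 fold change of 0.91 (standard error 0.19). It lies 40.0 kb before *Rgs16* on the same strand. Both genes of this pair were higher, and both of the *Rgs5* and *Rgs4* pair were lower. These pairs include chosen genes, so nothing is read from their directions.

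*Rgs6*, *Rgs11* and *Rgs22* were tested and not called, at log2 fold changes of -0.09, 0.19 and -0.29 with standard errors of 0.41, 0.25 and 0.35. With at most 46 counts in any culture, these 3 genes could not show a small difference at this depth. *Rgs1*, *Rgs13*, *Rgs14*, *Rgs18* and *Rgs21* had at most 16 counts in any culture and did not pass the filter. Several of these are genes of lymphocytes and other blood cells.

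**Figure D2:**
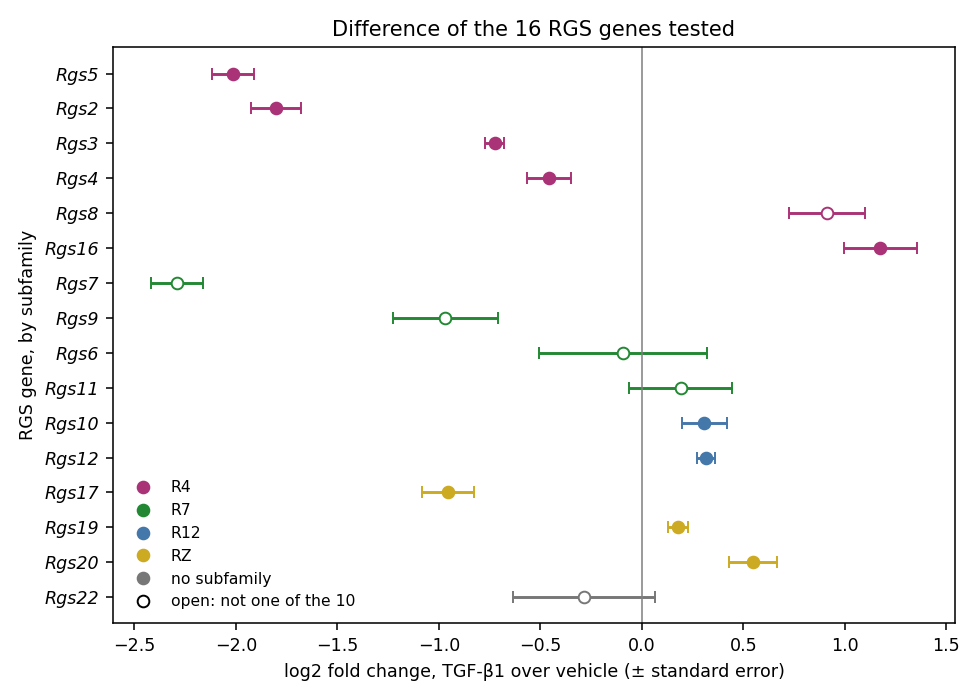
Log2 fold change of TGF-β1 over vehicle with its standard error for the 16 RGS genes tested, grouped by subfamily, with filled points for the 10 chosen genes and open points for the others. The R4 genes span from -2.02 (*Rgs5*) to 1.18 (*Rgs16*), and *Rgs7* has the lowest value of all, at -2.29.

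Per kilobase of merged exon length, which lets genes be compared with each other, *Rgs19* had the highest level of the family in both groups. It stood at 11.1 ± 0.987 CPM per kb with vehicle and 12.6 ± 0.469 with TGF-β1 (SD, n = 4). Its share of the summed level of all 21 RGS genes was between 36.7% and 41.3% in the vehicle cultures and between 47.1% and 48.0% in the TGF-β1 cultures. In the vehicle cultures it was followed by *Rgs12* (3.24 CPM per kb) and *Rgs3* (3.20), whose ranges overlapped. *Rgs10* came next at 2.36, then *Rgs5* (1.90), *Rgs4* (1.68) and *Rgs2* (1.58), where neighbouring ranges overlapped. *Rgs20* (0.649), *Rgs17* (0.486) and *Rgs16* (0.412) were the lowest of the 10, and the last of these overlapped with *Rgs17*.

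The order was different after TGF-β1. *Rgs12* was second at 4.03 CPM per kb, and *Rgs10* (2.92) was above *Rgs3* (1.93). *Rgs4* followed at 1.22. *Rgs20* (0.948) and *Rgs16* (0.933) overlapped and both stood above *Rgs5* (0.469) and *Rgs2* (0.453), which overlapped with each other. *Rgs17* was lowest of the 10 at 0.250. *Rgs5* thus went from place 5 to place 8 among the 21 genes. With the length of the longest transcript in place of merged exons, 6 of the 10 genes kept their place with vehicle and 6 with TGF-β1 when ranked among the 10 only, and among all 21 genes *Rgs5* was at place 5 with vehicle and place 9 with TGF-β1.

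The summed level of the family was similar in both groups while its make-up differed. The sum was 28.3 ± 1.12 CPM per kb with vehicle and 26.6 ± 0.795 with TGF-β1 (SD, n = 4), and the groups overlapped (ratio of the means 0.942). R4 genes made up 31.8 ± 1.52% of the sum with vehicle and 19.9 ± 1.32% with TGF-β1. The share of R7 was 4.70 ± 0.649% and 1.84 ± 0.268%. In the other direction, R12 held 19.8 ± 0.563% and 26.1 ± 1.11%, and RZ held 43.4 ± 1.68% and 51.9 ± 0.646%. For each of these 4 shares the groups did not overlap. The shares restate the gene values given above, those of the chosen genes and, for R7, those of *Rgs7* and *Rgs9*, and are no independent result.

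**Figure D3:**
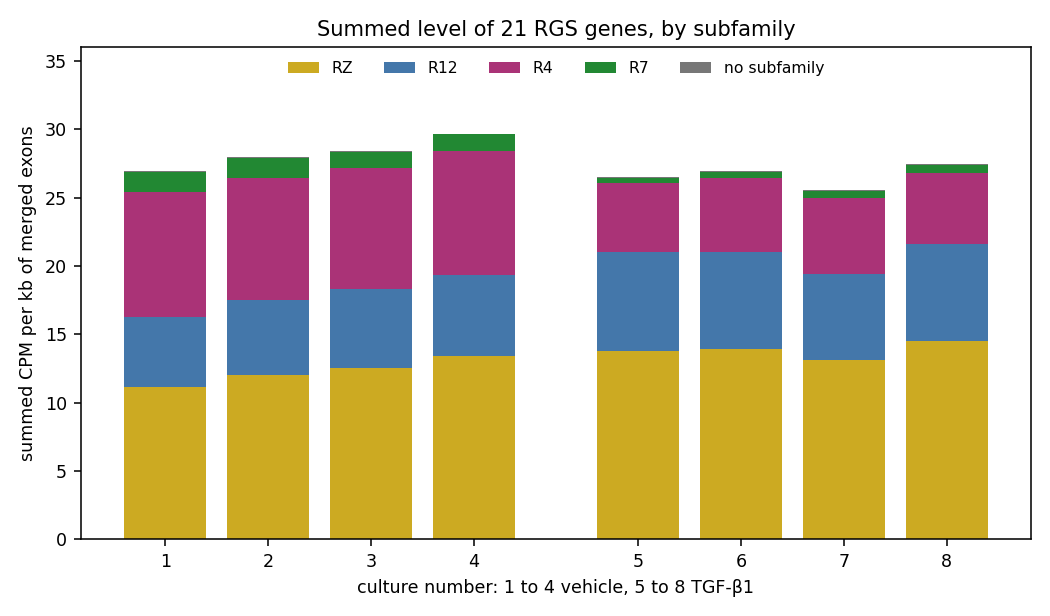
Summed CPM per kb of merged exon length of the 21 RGS genes in each culture (1 to 4 vehicle, 5 to 8 TGF-β1), stacked by subfamily from an axis that starts at 0. The bars reach between 25.6 and 29.7, while the R4 part takes 30.6% to 34.0% of the vehicle bars and 18.9% to 21.7% of the TGF-β1 bars.

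*Rgs5* was next set beside the other genes by which the study marks pericytes. *Pdgfrb*, the PDGF receptor that pericytes need for recruitment to vessels, rose from 202 ± 5.43 to 291 ± 2.58 CPM (SD, n = 4; log2 fold change 0.53, adjusted p = 1.26e-22, edgeR's quasi-likelihood test). *Cspg4*, which encodes the proteoglycan NG2, rose from 82.9 ± 2.50 to 169 ± 5.62 CPM (log2 fold change 1.03, adjusted p = 2.02e-30, same test). *Notch3*, a receptor of mural cells, was not called (log2 fold change -0.04, standard error 0.03, adjusted p = 0.301). *Des*, the intermediate filament desmin, was at 0.685 ± 0.0949 and 0.623 ± 0.0669 CPM (log2 fold change -0.14, standard error 0.25, adjusted p = 0.715), too low for a small difference to be detectable. *Acta2*, smooth muscle actin, was not called either (log2 fold change -0.03, standard error 0.02, adjusted p = 0.339). The study groups *Notch3*, *Pdgfrb* and *Rgs5* as markers that stay unchanged in prostate cancer and *Des*, *Cspg4* and *Acta2* as markers that fall. By quantitative PCR after a shorter TGF-β treatment, it reported *Des* lower and *Pdgfrb* and *Rgs5* roughly unaltered. It reported *Acta2* as lower in this same sequencing. Here *Rgs5* was lower, *Pdgfrb* was higher and *Acta2* was not called, and the reason for the differences was not tested.

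A ratio with *Rgs5* as the denominator therefore moved with *Rgs5* itself, and that of *Pdgfrb* also with the rise of *Pdgfrb*. The ratio of *Pecam1*, the endothelial CD31 gene, to *Rgs5* was 0.129 ± 0.0424 with vehicle and 0.521 ± 0.0526 with TGF-β1 (SD, n = 4, CPM over CPM). That of *Des* was 0.0799 ± 0.0140 and 0.298 ± 0.0623, of *Notch3* 10.3 ± 0.411 and 40.6 ± 3.13, and of *Pdgfrb* 23.5 ± 1.00 and 138 ± 15.4. None of these ratios overlapped between the groups, which restates the difference in *Rgs5* and is no separate result.

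**Figure D4:**
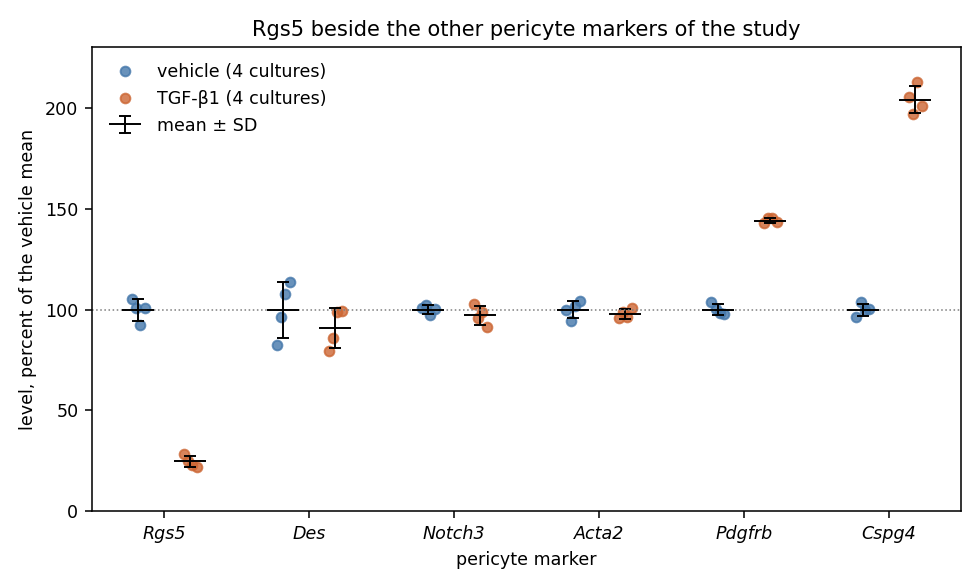
Levels of *Rgs5* and the other pericyte markers named in the study, as a percentage of each gene's vehicle mean, with 1 point per culture and the mean ± SD of 4 cultures. *Rgs5* lies at a mean of 24.7% with TGF-β1, *Des*, *Notch3* and *Acta2* overlap with their vehicle values, and *Pdgfrb* and *Cspg4* lie above them in every culture.

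The label of the cultures was checked against marker lists. Of 13 pericyte markers, *Rgs5* among them, 10 were tested, 4 of them higher and 3 lower. Their summed level was 421 to 441 CPM with vehicle and 582 to 604 CPM with TGF-β1, and *Pdgfrb* alone gave 48.2% of it. *Rgs5* stood at 1.90 CPM per kb with vehicle, against 36.9 for *Pdgfrb* and 10.9 for *Notch3*. *Kcnj8*, a channel gene typical of brain pericytes in tissue, had at most 3 counts in every culture, and *Abcc9* and *Vtn* did not pass the filter either. Fibroblast markers summed to 3718 to 3878 CPM with vehicle and 5327 to 5569 CPM with TGF-β1, mainly from collagen genes, with 2 of 5 tested genes higher and 2 lower. Endothelial markers summed to 471 to 484 and 472 to 498 CPM, of which *Cdh5* gave 76.7%, with 1 of 5 tested genes higher and 1 lower. With vehicle, *Flt1* and *Kdr* had means of 81.7 and 17.9 CPM, but *Tek* and *Pecam1* only 2.71 and 1.11 CPM. *Cldn5*, *Tie1* and *Emcn*, also on this list, did not pass the filter. Smooth muscle markers summed to 761 to 836 and 730 to 771 CPM, of which *Acta2* gave 93.1%. With vehicle, *Synpo2* and *Lmod1* had means of 43.0 and 26.0 CPM, and *Myh11*, *Tagln*, *Cnn1*, *Pln* and *Casq2* were at 1.90 CPM or less. Of the 8 smooth muscle markers, all tested, 1 was higher and 2 were lower. Astrocyte markers summed to 50.8 to 58.0 and 39.3 to 44.3 CPM, with 2 of 5 tested genes higher and 2 lower, and oligodendrocyte markers to 3.86 to 5.11 and 5.15 to 5.76 CPM, with 1 of 3 higher. What part these cell types have in the RGS values was not tested. On a short list of 5 genes that commonly respond to TGF-β, 4 were higher and 1 was lower, and their sum was 431 to 446 CPM with vehicle and 655 to 699 CPM with TGF-β1.

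Around the RGS family, 8 lists of G protein signalling genes held 114 genes, of which 99 were tested, 32 were higher and 25 lower. The share called was 57.6%, beside 41.3% over all genes tested, and the lists were chosen with earlier results known. By list it was 75% for receptors and for phospholipase C-β, 66.7% for R7 partners and 60% for other RGS-domain proteins. It was 57.1% for the N-degron pathway, 44.4% for exchange regulators and arrestins, 40% for Gβ and Gγ and 35.7% for Gα. The median log2 fold change of the 99 genes was 0.02 and the median absolute value 0.17, beside -0.01 and 0.18 over all genes. Genes named below from these lists were picked because they were called, so their adjusted p values are descriptive and lend no support. Partner proteins of the R7 group came first. *Rgs7bp*, which anchors R7 proteins at the membrane, fell from 18.1 ± 1.53 to 14.5 ± 0.813 CPM (log2 fold change -0.33, adjusted p = 1.61e-05). *Gnb5*, the Gβ5 gene and obligate partner of R7 proteins, was the other called gene of the 3 (chosen after its value was seen), at a log2 fold change of 0.18 and an adjusted p of 0.0424, and it lost the call under 9 of the 14 alternatives.

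Among 15 other proteins with an RGS homology domain, 4 were higher and 5 lower. *Grk3*, a kinase that turns off activated receptors, fell from 35.9 ± 1.20 to 17.6 ± 1.40 CPM (log2 fold change -1.03, adjusted p = 8.69e-22), and its relative *Grk5* rose by 0.19 on the log2 scale (adjusted p = 1.45e-05). *Axin2*, a scaffold and feedback target of Wnt signalling, rose from 37.8 ± 2.28 to 60.6 ± 1.34 CPM (log2 fold change 0.68, adjusted p = 1.36e-19).

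The Gα subunits are the substrates of RGS proteins. Of 14 Gα genes tested, 3 were higher and 2 lower. *Gnai1*, a Gi subunit, rose from 11.9 ± 0.730 to 15.7 ± 1.08 CPM (log2 fold change 0.40, adjusted p = 8.82e-07). *Gnao1*, encoding Go, fell from 93.3 ± 1.14 to 74.2 ± 1.98 CPM (log2 fold change -0.33, adjusted p = 3.35e-13), and *Gna15*, of the Gq class, rose by 0.52 (adjusted p = 0.00148). Of 15 Gβ and Gγ genes tested, 4 were higher and 2 lower. *Gng4* rose by 0.94 (adjusted p = 9.57e-05) and *Gng11* by 0.25 (adjusted p = 5.32e-06) on the log2 scale, while *Gng3* fell by 0.32 (adjusted p = 0.0157, or 0.0587 and not called without TGF-β1 culture 8). *Gng2*, named here after its value was seen because its mean was below 1 CPM, had the largest difference of this list, from 0.281 ± 0.0915 to 0.960 ± 0.170 CPM (log2 fold change 1.76, adjusted p = 1.77e-06).

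Of 9 regulators of Gα exchange and arrestins, 2 were higher and 2 lower. *Arrb1*, β-arrestin 1, which uncouples receptors, fell by 0.37 (adjusted p = 1.39e-13), *Gpsm2*, a GoLoco protein of spindle orientation, fell by 0.21 (adjusted p = 6.41e-06), and *Gpsm3* rose by 0.15 (adjusted p = 0.0086). The phospholipase C-β enzymes, effectors of Gq, split as well. *Plcb4* fell from 60.9 ± 2.64 to 44.7 ± 1.74 CPM (log2 fold change -0.45, adjusted p = 3.40e-14) and *Plcb1* fell by 0.24 (adjusted p = 2.78e-06), whereas *Plcb3* rose by 0.17 (adjusted p = 2.25e-06).

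The receptors lie upstream of the RGS proteins. Of 44 receptor genes listed for mural cells, 32 were tested, 14 were higher and 10 lower, and the absolute log2 fold changes had a median of 0.57. *Adra1b*, the α1B-adrenergic receptor that couples to Gq, had 53.1 CPM or less in 3 vehicle cultures and 58.3 CPM in the fourth. It fell from 54.2 ± 2.76 to 15.9 ± 2.18 CPM (log2 fold change -1.77, standard error 0.07, adjusted p = 1.16e-10). *Ptger3*, a prostaglandin E2 receptor that couples mainly to Gi, fell from 2.09 ± 0.286 to 0.546 ± 0.0915 CPM (log2 fold change -1.93, standard error 0.20, adjusted p = 3.46e-11). *P2ry2*, a receptor for ATP and UTP, rose from 1.24 ± 0.471 to 3.71 ± 0.156 CPM (log2 fold change 1.58, standard error 0.16, adjusted p = 9.73e-11).

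The enzymes of the N-degron pathway, which act on RGS4, RGS5 and RGS16 proteins through the cysteine shown above, showed small differences. Of 7 genes tested, 3 were higher and 1 lower. *Ado*, the dioxygenase that oxidises the exposed cysteine, rose from 60.6 ± 2.35 to 75.8 ± 1.53 CPM (log2 fold change 0.32, adjusted p = 1.24e-11). *Metap1*, a methionine aminopeptidase, rose by 0.14 (adjusted p = 0.000437). *Ubr1*, a ligase that reads arginylated ends, rose by 0.09 (adjusted p = 0.0187), a call that was lost without TGF-β1 culture 5 (adjusted p = 0.117) and with every gene of at least 1 count tested (adjusted p = 0.0537).

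**Figure D5:**
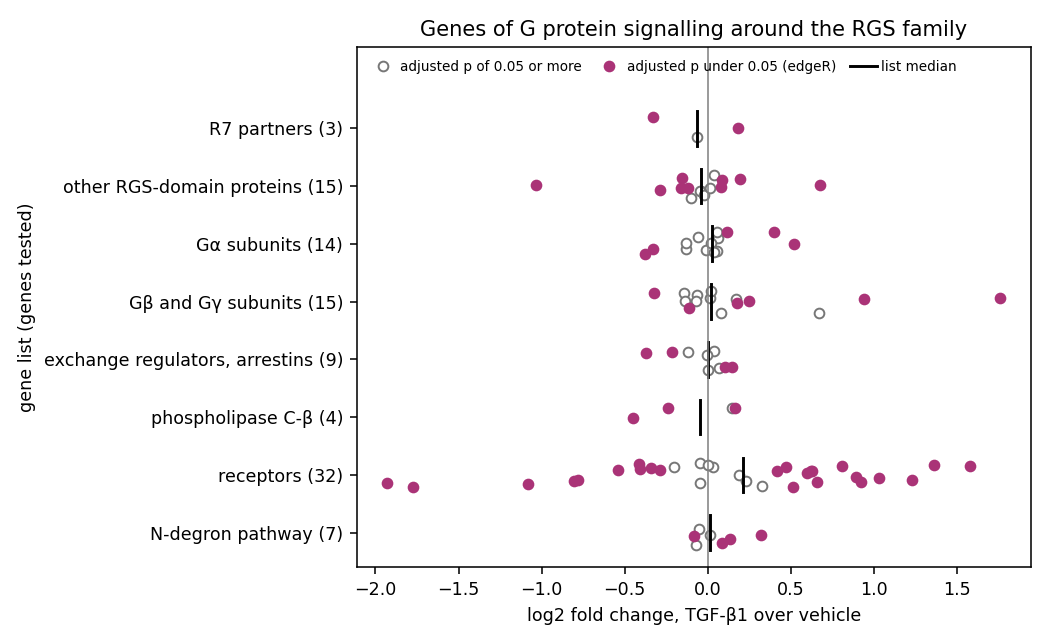
Log2 fold change of TGF-β1 over vehicle for the 99 tested genes of the 8 signalling lists, 1 point per gene, filled where the adjusted p of edgeR's quasi-likelihood test was under 0.05, with a bar at each list's median. Receptors spread from -1.93 (*Ptger3*) to 1.58 (*P2ry2*), while most Gα, exchange regulator and N-degron genes lie near 0.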

How the data were processed

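Total RNA from 8 primary pericyte cultures was sequenced from stranded libraries. According to the study's methods, the authors aligned reads to mm10 with STAR 2.7.5c in its 2-pass mode, took out duplicates with samtools 1.15 and used featureCounts 2.0.3 for counts per gene. They deposited these counts without normalization, 1 library per culture. The strand setting and annotation release are not given in the sources used here.

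GENCODE M21 (GRCm38, the assembly mm10 names) and the gene name table gave symbols for 54409 of 54532 identifiers, and positions for 54495. The deposited counts were fitted with edgeR 4.0.16 (R 4.3.3; filterByExpr, TMM, robust quasi-likelihood test, Benjamini-Hochberg over all 22544 genes tested, threshold 0.05), after the code was tested on simulated data. Depth was 45255235 to 47651397 counts per culture. Cultures were compared as unpaired groups of 4. Levels per kilobase used merged exon length. Promoter windows are from RefSeq.

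The 10 genes and all lists were chosen with earlier results of these data known. Named genes are the RGS genes, the study's pericyte markers and, per signalling list, up to 3 called genes without overlap, at 1 CPM or more on average, taken by largest change. Alternatives were DESeq2 1.42.0, its size factors, library totals, a filter of 1 count in any culture or of 10 in every culture, counts halved, each culture left out, and longest transcript length. The authors' protein, tissue and single-cell experiments were not analysed here.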

Additional observations from a re-analysis of the deposited data

Results flagged for a closer look

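In 6 of the 96 groups of 4 cultures examined, 1 culture stood apart from the other 3 by Dixon's test at the 95% level, where chance gives about 1 in 20 groups, or 4.8. Among the RGS genes, *Rgs16* was at 1.70 CPM in TGF-β1 culture 5, while the nearest other TGF-β1 culture was at 2.29 CPM, and this low culture was still above all vehicle cultures. *Rgs20* was at 3.10 CPM in vehicle culture 1, with the nearest other vehicle culture at 2.66 CPM. *Rgs6* was at 0.383 CPM in TGF-β1 culture 8, the next being at 0.196 CPM, which corresponds to 18 counts against 9. *Rgs14* was at 0.0421 CPM in vehicle culture 3, which is 2 counts, and at 0 in the other vehicle cultures. Among the signalling genes, *Gpsm3* was at 22.9 CPM in vehicle culture 2, the next value being 24.1 CPM, and *Adra1b* was at 58.3 CPM in vehicle culture 4, the next being 53.1 CPM. The 6 values came from 6 different genes and from 6 different cultures.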

How the results depend on the processing

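Over 14 alternatives, between 8559 and 9301 genes were called, and no gene named as called changed sign. The alternatives that give fold changes left 9 of the 10 RGS genes called each time, while *Rgs10* lost its call without vehicle culture 1 or 2 or TGF-β1 culture 5 or 6, at log2 fold changes of 0.26, 0.28, 0.23 and 0.28. *Gng3* lost its call without TGF-β1 culture 8 (adjusted p = 0.0587). With each culture left out, the log2 fold change of *Rgs5* ranged from -2.10 to -1.96, of *Rgs2* from -1.92 to -1.71 and of *Rgs16* from 1.10 to 1.31. With the longest transcript as length, 6 of the 10 genes kept their place among the 10 in the order of levels with vehicle and 6, not all of them the same, with TGF-β1, the RZ share was 41.5% with vehicle and 49.8% with TGF-β1, and the R12 share was 21.9% and 28.7%. No paired analysis was possible because the labels number the vehicle cultures 1 to 4 and the TGF-β1 cultures 5 to 8, although the study's methods describe isolates that received both. Genes under about 1 CPM rest on few counts, so small differences in them were not detectable.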
